A study of Mus musculus with 14 samples.

Results

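Etv4-high neurons of the E16 apex are spiral ganglion neurons taken at embryonic day 16 (E16) from the apical portion of the cochlea that carried a high level of Etv4 RNA. A cell was a member when Etv4 made up at least 2 per 10000 of its UMIs (unique molecular identifiers, one for each captured RNA molecule). The comparison cells were the apical cells of the same libraries with no Etv4 UMI. There were 244 members among 1368 apical cells (17.8%) and 5441 cells in all, with 70, 100 and 74 in replicates 1, 2 and 3. No Etv4 UMI was found in 908 apical cells, and the other 216 lay between both classes and entered neither.

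The series profiled spiral ganglion neurons of CD1 mice, with no treatment and no altered allele, at E14, E16, E18 and postnatal day 1 (P1) by droplet single-cell RNA sequencing. Replicates of a stage were pools of ganglia from separate litters, with 3 libraries at E14, 3 apical and 3 basal libraries at E16 from ganglia divided at the middle turn, 3 at E18 and 2 at P1. Per the labels, E14 and E16 tissue was dissociated with trypsin and E18 and P1 tissue with papain, so enzyme and age cannot be told apart. Some sensory epithelium and mesenchyme stayed on the dissected ganglia.

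Etv4 encodes a transcription factor of the PEA3 group of ETS proteins, together with Etv1 and Etv5. Genes of this group are known targets of fibroblast growth factor (FGF) and other receptor tyrosine kinase signals through the ERK kinases, and in motor and sensory neurons they respond to growth factors from the tissue that the axon reaches. The spiral ganglion holds type I neurons, which contact inner hair cells and are divided into IA, IB and IC, and the sparse type II neurons, which contact outer hair cells. Neurons of the cochlear base mature ahead of those of the apex.

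Etv4 lies on chromosome 11 from 101769742 to 101785371 on the minus strand of mm10 (GENCODE M21). Its level chose the members, so it is given as a description. The median member had 3.34 Etv4 UMIs per 10000, and members ranged from 2.01 to 12.3. Of the members, 55 had a single Etv4 UMI, 119 had 2 and 70 had 3 or more, up to 9. The members nearest to the threshold were at 2.012 and 2.017 per 10000, and the nearest cells outside it were at 1.999 and 1.987. A single UMI passes the threshold only in a cell of at most 5000 UMIs, and a cell without a UMI may still hold the RNA. Depth was close between the classes: the median member had 4953, 6071 and 6159 UMIs in replicates 1, 2 and 3, and the median Etv4-zero cell 5071, 5886 and 6202.

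All apical libraries held neurons in both classes. The summed level of 10 neuron markers was 10711 to 11909 CPM (counts per 1000000 UMIs of the summed class) in members and 11036 to 11957 CPM in Etv4-zero cells. The 9 spiral ganglion neuron markers summed to 2768 to 3041 CPM in members and 2754 to 2812 CPM in Etv4-zero cells. Markers of cell types left on the tissue were low in both classes. Glial markers summed to 60.2 to 88.6 CPM in members and 64.2 to 85.2 CPM in Etv4-zero cells, with 7 of 8 detected in each and Sox10 at 0 in members. Mesenchyme markers summed to 57.0 to 69.4 and 39.7 to 64.2 CPM (6 and 7 of 7 detected, Col1a1 at 0 in members), hair cell markers to 78.1 to 82.4 and 72.8 to 96.1 CPM (3 and 6 of 7 detected), and blood markers to 84.6 to 330 and 88.5 to 457 CPM (5 of 5 in both). Atoh1, Pou4f3, Myo7a and Gfi1 were at 0 in members, as were the melanocyte markers Mlana, Pmel, Dct and Tyr. Of the 6 cell barcodes shared by libraries, 1 belonged to a member. No doublet caller was run.

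The share of Etv4-high cells rests on the Etv4 values that chose the members, so it is given as a description with no test. In the apex it was 21.3%, 18.4% and 14.9% of the cells of replicates 1, 2 and 3 (18.2% ± 3.21, SD, n = 3). In the base it was 0.426%, 3.00% and 1.47% (1.63% ± 1.30, SD, n = 3). The lowest apical share was above the highest basal share. Depth differed between libraries: the median cell had 5122 to 6332 UMIs in the apex and 2769 to 9537 in the base. Among cells of at least 5000 UMIs the shares were 16.3% ± 2.48 and 0.689% ± 0.847 (SD, n = 3).

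At E14 the share was 34.4%, 23.2% and 27.0%, above every apical library. It was 4.24%, 7.12% and 1.23% at E18 and 2.28% and 1.99% at P1, below every apical library. As a level over all cells of a library, Etv4 was at 132 to 173 CPM at E14, 78.0 to 102 CPM in the E16 apex, 9.43 to 15.1 CPM in the E16 base, 16.4 to 28.4 CPM at E18 and 11.0 to 15.2 CPM at P1. The ranges of the E16 base and P1 overlapped, and no other pair of groups did.

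**Figure D1:**
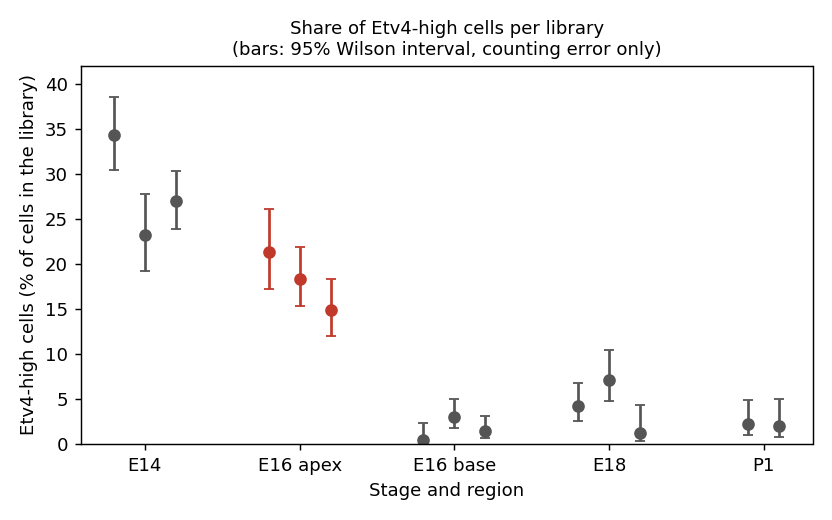
Share of Etv4-high cells (at least 2 Etv4 UMIs per 10000) in percent of the cells of each library, by stage and region. Points are libraries and bars are 95% Wilson intervals, which cover counting error only. The apical libraries (red) lie between 14.9% and 21.3%, below all E14 libraries and above all basal, E18 and P1 libraries.

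Members differed from Etv4-zero cells of the same apical libraries in a small part of the transcriptome. UMI counts were summed per class and library and compared with quasi-likelihood tests in edgeR, with the library as a block and Benjamini-Hochberg adjustment over all genes. Of 8998 genes tested, 227 passed an adjusted p of 0.05 (2.52%), 117 higher in members (1.3%) and 110 lower (1.22%). Dusp6, Opcml, Pcdh17, Sox11 and Nefm were among the higher ones, and Calb2, Prph, Cntn5 and Sytl2 among the lower ones. The 117 also hold F2r, Crtac1 and Maf, which were named from these same libraries and are no test of them. The median log2 difference over all tested genes was -0.0038. The sums of the classes did not overlap over the 3 libraries for 1002 of the 8998 genes (11.1%), in either direction. With DESeq2 in place of edgeR 50 genes passed, and without replicate 3 101. Cells of a library come from the same pooled ganglia, so both sums of a library are paired by pool. Xist, left out of the named genes, was among those higher in members (log2 difference 0.48). Whether the classes hold the same mix of embryos of a pool was not tested. With the library as block, p-values measure how the difference between classes varies over 3 libraries, not the spread between libraries. Without the block 17 genes passed.

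Among PEA3 and FGF feedback genes, 3 of the 12 tested were higher and 0 lower in edgeR, with a list median of 0.26. At an unadjusted p under 0.05 there were 6 higher and 0 lower, and DESeq2 called 1, Dusp6. Dusp6, an ERK phosphatase that ERK signalling itself induces, was at 64.0, 57.0 and 43.4 CPM in members and at 17.4, 14.6 and 15.2 CPM in Etv4-zero cells of replicates 1, 2 and 3. Each member sum was above each Etv4-zero sum (log2 difference 1.79, SE 0.23, edgeR adjusted p = 6.07e-07). As a share of cells, 58 of 244 members (23.8%) and 69 of 908 Etv4-zero cells (7.60%) had a Dusp6 UMI. After thinning each cell to 3000 UMIs, with 1 member and 26 Etv4-zero cells too shallow, the shares were 12.3% and 4.99%, beside 0.436% in P1 cells at the same depth.

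Etv5, a further gene of the PEA3 group, was at 29.5, 49.1 and 43.4 CPM in members and 19.0, 25.4 and 17.6 CPM in Etv4-zero cells. The classes did not overlap (log2 difference 0.99, SE 0.23, edgeR adjusted p = 0.00884). Spred3, an inhibitor of ERK signalling, was at 44.3, 33.3 and 45.6 CPM against 24.0, 19.5 and 20.0 CPM (log2 difference 0.95, SE 0.24, adjusted p = 0.0152). Both lost their call without replicate 3 (adjusted p = 0.178 and 0.230), and Etv5 also without replicate 2 (0.0952). The Sprouty and Spred genes Spry4 (0.86, adjusted p = 0.161) and Spred2 (0.83, adjusted p = 0.195) did not pass. The receptor Fgfr1 had a log2 difference of 0.19 (SE 0.28), and the kinase Mapk3 had 0.07 (SE 0.10). Etv1, Spry1 and Spry2 were too low to be tested. Of 7 tested growth factor receptor genes, edgeR called 0, also at an unadjusted p under 0.05, and so did DESeq2. The neurotrophin receptors Ntrk2 (-0.00, SE 0.09) and Ntrk3 (-0.05, SE 0.07) and the GDNF coreceptor Gfra1 (0.14, SE 0.13) were among them.

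F2r, Crtac1 and Maf were named as markers of these cells from these same libraries, so their apical levels are a description. F2r, the thrombin receptor PAR1, was at 165, 166 and 191 CPM in members and 97.6, 86.3 and 85.7 CPM in Etv4-zero cells. Crtac1, a secreted antagonist of the Nogo receptor, was at 118, 136 and 95.4 CPM in members and 44.7, 48.3 and 32.8 CPM in Etv4-zero cells. Neither gene overlapped between classes. Maf, a bZIP transcription factor that acts in mechanosensory neurons, was at 268, 409 and 551 CPM in members and 252, 277 and 438 CPM in Etv4-zero cells. Its member sum was higher in each library, but the ranges overlapped because libraries differed more than classes.

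A UMI of F2r was found in 55.7% of members and 34.7% of Etv4-zero cells, one of Crtac1 in 45.1% and 19.7%, and one of Maf in 77.5% and 65.7%. Thinned to 3000 UMIs per cell, the shares were 35.8% and 21.0% for F2r, 23.5% and 10.1% for Crtac1, and 64.6% and 54.0% for Maf. In P1 cells thinned alike the shares were 6.75%, 6.10% and 33.1%. A cell without a UMI may still hold the RNA. Of the other tested genes of the thrombin receptor list, Plcb1, a phospholipase below Gq-coupled receptors, was lower in members (-1.22, SE 0.25, edgeR adjusted p = 0.00153). F2rl1 and F2rl2 had no UMI in either class. Among Nogo receptor genes, Rtn4, which encodes Nogo (0.01, SE 0.06), and the coreceptor genes Lingo1 (-0.10, SE 0.13) and Ngfr (0.07, SE 0.13) did not pass, and Rtn4r was too low to be tested.

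The promoters of Dusp6, F2r and Crtac1 are shown because these genes were higher in members at more than 1 stage (below) and Dusp6 is the ERK feedback gene with the greatest difference here. The sequences are the 250 bases before the RefSeq start (GRCm38.p6), 5′ to 3′ on the strand of the gene, and capitals mark the ETS core motif CGGAAG or its reverse complement. They lie at chr10:99262981-99263230 on the plus strand, chr13:95618467-95618716 on the minus strand and chr19:42431789-42432038 on the minus strand.
Dusp6: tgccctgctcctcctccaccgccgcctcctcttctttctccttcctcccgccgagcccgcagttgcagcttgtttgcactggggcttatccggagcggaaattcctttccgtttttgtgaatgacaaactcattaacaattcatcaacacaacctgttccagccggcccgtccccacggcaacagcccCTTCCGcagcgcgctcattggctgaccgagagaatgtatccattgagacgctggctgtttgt
F2r: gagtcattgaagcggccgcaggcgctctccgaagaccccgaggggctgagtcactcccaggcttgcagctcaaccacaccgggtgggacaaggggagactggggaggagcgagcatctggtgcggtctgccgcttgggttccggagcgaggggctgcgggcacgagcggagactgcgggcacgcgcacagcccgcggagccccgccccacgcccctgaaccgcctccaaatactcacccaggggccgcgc
Crtac1: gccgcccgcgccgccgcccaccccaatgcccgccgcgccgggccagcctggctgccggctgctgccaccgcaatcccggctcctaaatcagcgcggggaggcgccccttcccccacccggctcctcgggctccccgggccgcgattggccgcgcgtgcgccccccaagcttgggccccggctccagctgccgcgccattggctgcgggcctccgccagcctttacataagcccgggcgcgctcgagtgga

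Dusp6 held 1 match, which begins 62 bases before the start, and the windows of F2r and Crtac1 (the first of 2 in the table) held none. Of the genes higher in members, 26 of 89 with a promoter in the table (29.2%) had a match on either strand, beside 13 of 85 (15.3%) of the lower genes and 31.4% of all tested genes. The higher genes were therefore close to the share of all tested genes. A match describes letters in the window and shows no binding.

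**Figure D2:**
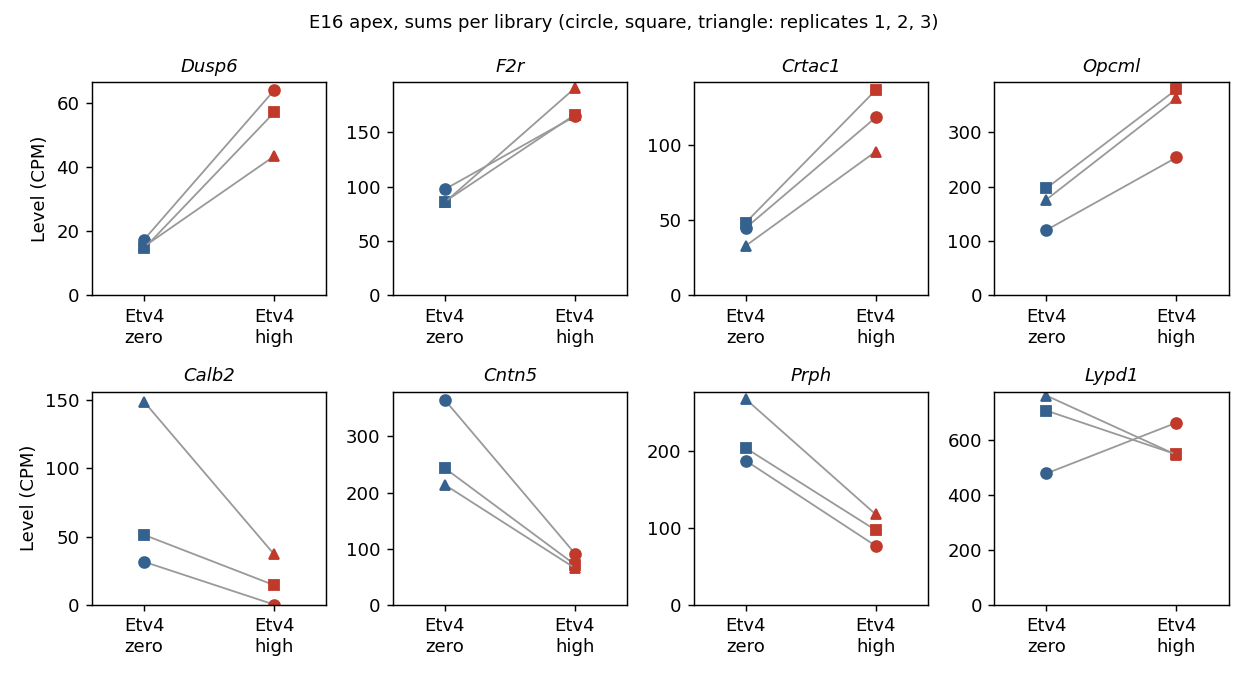
Level in CPM of 8 genes in the summed Etv4-zero (blue) and Etv4-high (red) cells of each E16 apical library, with lines joining classes of a library. Dusp6, F2r, Crtac1 and Opcml are higher and Calb2, Cntn5 and Prph lower in members of each library, while Lypd1 is higher in replicate 1 and lower in replicates 2 and 3.

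The 12 largest differences toward members included genes of the cell surface and matrix. Hs3st4, which adds sulfate to heparan sulfate chains, was at 34.4, 31.7 and 28.2 CPM in members and 8.27, 8.29 and 9.04 CPM in Etv4-zero cells (log2 difference 1.85, SE 0.30, edgeR adjusted p = 7.05e-05). Fstl5, a follistatin-like secreted protein gene, was at 49.2, 69.7 and 49.9 CPM against 24.8, 19.5 and 13.3 CPM (1.62, SE 0.22, adjusted p = 3.21e-06). Pcdh17, a protocadherin gene, was at 39.4, 66.6 and 71.6 CPM against 19.0, 21.9 and 24.3 CPM (1.48, SE 0.21, adjusted p = 4.27e-06). None of these overlapped between classes. The glypican gene Gpc6 (1.17, SE 0.32, adjusted p = 0.0371) lost its call without any 1 of the 3 libraries (adjusted p = 0.0514, 0.586 and 0.0875 without replicates 1, 2 and 3).

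Uts2b, which encodes a urotensin II-related peptide, was at 76.3, 130 and 130 CPM in members and 17.4, 57.0 and 36.6 CPM in Etv4-zero cells (1.55, SE 0.17, edgeR adjusted p = 1.78e-08). Prr15 (1.43), Wscd1 (1.31), Mphosph9 (1.24), Sobp (1.12) and Nedd1 (1.09) were the others of the largest differences, and Crtac1 and Dusp6 complete them. Mphosph9 lost its call without replicate 2 or 3 (adjusted p = 0.154 and 0.0640) and Nedd1 without replicate 1 or 3 (0.289 and 0.247). Opcml, an IgLON adhesion molecule gene, had a smaller but more even difference: 253, 379 and 362 CPM in members and 120, 197 and 176 CPM in Etv4-zero cells (1.00, SE 0.08, adjusted p = 3.38e-11).

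Adhesion and cadherin genes moved both ways, with 3 of 21 tested higher (Pcdh17, Pcdh7 and Cdh13) and 3 lower (Cntn5, Pcdh19 and Lrrtm3) and a list median of 0.03. The axon guidance list had 1 of 25 higher, the netrin receptor gene Unc5c (0.88, SE 0.13), and 3 lower: Sema3e (-0.80, SE 0.13), Epha3 (-1.71, SE 0.43) and Robo2 (-1.17, SE 0.30). Without replicate 3 the calls of Pcdh7, Cdh13, Pcdh19, Epha3 and Robo2 were lost (adjusted p = 0.230, 0.230, 0.231, 0.339 and 0.247). Cdh13 also lost its call without replicate 1 (0.156), and Lrrtm3 and Robo2 without replicate 2 (0.265 and 0.293).

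Transcription factors of neurons divided likewise, with 3 of 24 tested higher and 5 lower. Gata3, a zinc finger factor that the spiral ganglion needs, was at 785, 845 and 840 CPM in members and 602, 659 and 507 CPM in Etv4-zero cells (0.48, SE 0.06, edgeR adjusted p = 1.31e-06). Sox11, a factor of young neurons, was at 1553, 2233 and 2048 CPM against 929, 1589 and 1362 CPM (0.59, SE 0.05, adjusted p = 2.98e-11). Sox11 overlapped between libraries and was higher in members of each of them. Ebf1 (0.25) was the third higher factor and lost its call without replicate 1 (adjusted p = 0.112). The lower factors were Prox1 (-0.93), Casz1 (-0.48), Isl1 (-0.33), Tle4 (-0.31) and Sox4 (-0.25). All of these lost their call without replicate 3 (adjusted p = 0.632, 0.149, 0.115, 0.0710 and 0.199), Prox1 also without replicate 2 (0.0528) and Tle4 without replicate 1 (0.537).

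The neuroblast factor gene Neurod1 was at 83.7, 52.3 and 82.4 CPM in members and 19.9, 41.9 and 52.8 CPM in Etv4-zero cells (0.83, SE 0.21, edgeR adjusted p = 0.0174). It was the only 1 of 4 tested neuroblast markers to pass, and it lost its call without replicate 1 or 3 (adjusted p = 0.303 and 0.126). The list summed to 192 to 229 CPM in members and 114 to 161 CPM in Etv4-zero cells, with 5 of 6 markers detected in each class and Neurog1 at 0. In the 98 members and 483 Etv4-zero cells without a UMI of any of these markers, 67 of 7074 genes passed. Dusp6 (2.16), Opcml (1.20), Cntn5 (-1.36) and Prph (-1.11) were among them. Of the genes followed over alternative runs, 27 kept their side of the threshold there, 25 lost their call and the others had no value. Etv5 (1.12, edgeR adjusted p = 0.391), Spred3 (1.25, 0.117), Prox1 (-0.94, 0.144) and Mdga1 (-0.31, 0.275) were among those that lost it. Their log2 differences over all cells were 0.99, 0.95, -0.93 and -0.38. Fewer cells entered this run, and the part of cell number in the lost calls was not tested.

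Of the neurofilament genes, Nefm and Nefl were higher in members. Nefm was at 6026, 6504 and 7235 CPM against 4101, 5205 and 5475 CPM (0.42, SE 0.04, edgeR adjusted p = 2.09e-09). Nefl had a log2 difference of 0.33 (SE 0.04), Nefh had -0.42 (SE 0.18, adjusted p = 0.279) and did not pass, and the list of 20 tested cytoskeletal genes had these 2 higher and Prph lower. Pvalb, which encodes the calcium-binding protein parvalbumin, was at 2151, 2005 and 1434 CPM against 1496, 1571 and 1142 CPM (0.40, SE 0.05, adjusted p = 2.04e-07). Of the immediate early genes, Fos was higher (0.62, SE 0.10) and Jun lower (-0.35, SE 0.09), and Jun lost its call without replicate 2 or 3 (adjusted p = 0.491 and 0.321).

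Calb2 was among the lower genes. It encodes calretinin, the calcium-binding protein that marks type IA neurons, and was at 0, 14.3 and 36.9 CPM in members and 31.4, 51.2 and 149 CPM in Etv4-zero cells (log2 difference -2.12, SE 0.25, edgeR adjusted p = 1.05e-07). The 0 of replicate 1 allows up to 7.38 CPM (3 counts of the summed UMIs). Ranges overlapped between libraries, and in each library members were lower. A Calb2 UMI was found in 13 of 244 members (5.33%) and 155 of 908 Etv4-zero cells (17.1%), or in 3.29% and 11.5% after thinning.

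Cntn5, a contactin gene of the cell surface, was at 91.0, 71.3 and 65.1 CPM in members and 365, 243 and 214 CPM in Etv4-zero cells (-1.83, SE 0.12, edgeR adjusted p = 2.66e-14). Pappa, a protease gene of the insulin-like growth factor system, was at 7.38, 11.1 and 30.4 CPM against 38.1, 62.9 and 91.8 CPM (-2.01, SE 0.25, adjusted p = 3.79e-07). Sytl2, a Rab27 effector gene, was at 17.2, 9.51 and 21.7 CPM against 74.5, 47.8 and 64.2 CPM (-1.96, SE 0.25, adjusted p = 1.05e-06). All 3 genes were lower in members without overlap. Cntnap5a, a relative of the contactin-associated proteins, had -1.64 (SE 0.22).

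Mab21l2 (-1.80), Npnt (-1.76), Khdrbs2 (-1.59), Lancl3 (-1.48) and Mgat4c (-1.47) passed with all libraries and lost their call without replicate 3 (adjusted p = 0.316, 0.141, 0.0557, 0.376 and 0.0959). The calcium channel genes Cacnb2 (-1.57) and Cacna1d (-1.17) were the 2 of 16 tested HCN and calcium channel genes that passed, both lower. Cacna1d lost its call without replicate 3 (adjusted p = 0.285) and Cacnb2 without replicate 1 or 2 (0.0775 and 0.398). Among genes of calcium-binding proteins, Pvalb was higher and Calb2, Vsnl1 (-1.47) and Necab1 (-1.18) were lower. Vsnl1 lost its call without replicate 3 (0.158) and Necab1 without replicate 2 (0.0838). The synaptic vesicle list had Syt7 (-1.02, SE 0.14) lower and Cplx2 (0.39, SE 0.11) higher among 25 tested, Cplx2 not without replicate 2 or 3 (adjusted p = 0.0545 and 0.514), and 0 of 13 tested neurotransmitter receptor genes passed in edgeR or DESeq2 (2 higher and 2 lower at an unadjusted p under 0.05).

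By subtype markers, members did not take one identity. Of type II markers, Gata3 was higher and Prph lower among 6 tested. Prph, the gene of the intermediate filament peripherin that becomes restricted to type II neurons, was at 76.3, 96.7 and 117 CPM in members and 187, 203 and 267 CPM in Etv4-zero cells, without overlap (-1.16, SE 0.11, edgeR adjusted p = 1.98e-09). Th, a further type II marker, had a log2 difference of -0.09 (SE 0.36). Th and Prph UMIs were found together in 4 of 244 members (1.64%) and 45 of 908 Etv4-zero cells.

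Of type IA markers, Calb2 and Mdga1 (-0.38) were lower among 5 tested, Mdga1 not without replicate 3 (adjusted p = 0.105). Of type IB and IC markers, 0 of 5 tested passed in edgeR or DESeq2 (2 higher and 1 lower at an unadjusted p under 0.05). Lypd1, the leading marker of this list, was at 664, 548 and 547 CPM in members and 479, 708 and 763 CPM in Etv4-zero cells, higher in replicate 1 and lower in replicates 2 and 3 (-0.18, SE 0.09, adjusted p = 0.445). Without replicate 1 Lypd1 was called lower (-0.42, adjusted p = 1.44e-06). It was also called lower in apical cells with any Etv4 UMI (-0.40, adjusted p = 0.0410). Lypd1 without Calb2 was found in 61.9% of members and 50.0% of Etv4-zero cells, Calb2 without Lypd1 in 3.69% and 14.2%, and neither in 32.8% and 32.9%.

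Because Etv4-zero cells held more Calb2 and Prph cells, the comparison was repeated among the 180 members and 499 Etv4-zero cells with no UMI of either gene. There 88 of 7492 genes passed, with fewer cells in both classes. Of the genes followed over alternative runs, 28 kept their call, 21 lost it and Tle4 changed sign. Pvalb (0.042, edgeR adjusted p = 0.928), Neurod1 (0.24, 0.844), Isl1 (-0.14, 0.623), Spred3 (0.84, 0.296), Etv5 (0.89, 0.154) and Sytl2 (-1.42, 0.0909) were among those that lost it. Opcml (0.89), Dusp6 (1.42) and Cntn5 (-1.61) kept their calls, and Lypd1 (-0.70, adjusted p = 1.71e-05) and Runx1, a further type IB and IC marker (-0.68, adjusted p = 0.00169), passed as lower. Runx1 over all cells had -0.27 (SE 0.11, adjusted p = 0.3).

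Levels were also compared over steps of Etv4, as a description. Apical cells were divided into 908 with no Etv4, 216 above 0 and below 2 per 10000, 174 from 2 to below 4 and 70 at 4 or more. Of 17 genes, chosen after apical values were seen, means were higher at each step for 5 (F2r, Dusp6, Etv5, Hs3st4 and Uts2b), lower at each step for 4 (Prph, Calb2, Cntn5 and Pappa) and had no single order for 8 (Crtac1, Maf, Gata3, Opcml, Sytl2, Prox1, Neurod1 and Lypd1). Mean Dusp6 over the 3 libraries was 15.7 ± 1.45, 28.8 ± 7.35, 54.9 ± 14.3 and 56.3 ± 2.40 CPM (SD, n = 3) in this order. Cntn5 was at 274 ± 80.1, 152 ± 65.7, 89.5 ± 21.2 and 42.8 ± 19.1 CPM. Prph was at 219 ± 42.2, 180 ± 25.1, 109 ± 31.1 and 58.2 ± 26.4 CPM. For these genes the mean of cells below the threshold lay between both classes, although neighbouring steps often overlapped within their SD.

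Pappa was lowest where Etv4 was highest, at 64.3 ± 26.9, 54.3 ± 19.0, 20.9 ± 13.6 and 3.23 ± 5.59 CPM. Its last step is within the counting floor, at 0, 0 and 9.69 CPM in replicates 1, 2 and 3. The sums there held 122539, 186664 and 103209 UMIs, so the last 2 steps of Pappa cannot be told apart. Uts2b was at 37.0 ± 19.8, 57.6 ± 24.4, 98.6 ± 30.7 and 155 ± 69.7 CPM. F2r was at 89.9 ± 6.74, 153 ± 32.7, 172 ± 14.6 and 181 ± 21.4 CPM, so that most of its difference lay between cells without and with Etv4. Crtac1 was at 41.9 ± 8.08, 83.6 ± 24.9, 120 ± 16.9 and 105 ± 33.9 CPM and Maf at 323 ± 101, 429 ± 164, 399 ± 139 and 436 ± 152 CPM, neither with a single order. Lypd1 had none either, at 650 ± 151, 433 ± 79.3, 536 ± 111 and 726 ± 52.0 CPM.

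**Figure D3:**
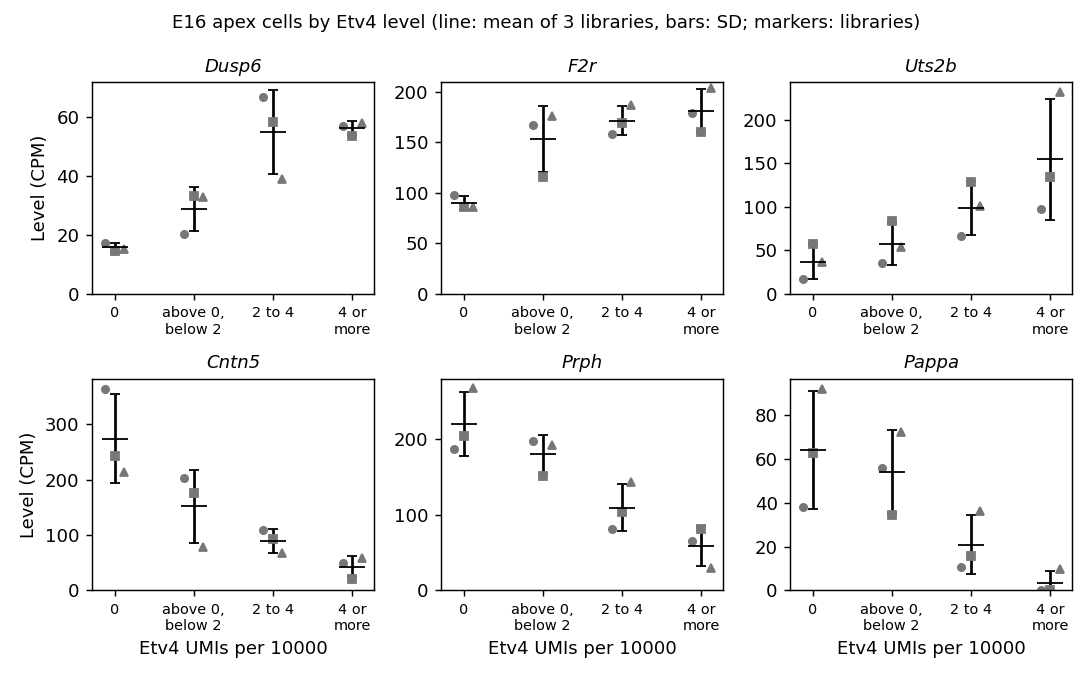
Level in CPM of 6 of the 9 genes with a single order, in E16 apical cells grouped by Etv4 UMIs per 10000 UMIs of the cell. Black lines and bars are the mean and SD of 3 libraries and grey markers the libraries. Dusp6, F2r and Uts2b are higher and Cntn5, Prph and Pappa lower with more Etv4. Pappa reaches 3.23 CPM at 4 or more, which is within the counting floor.

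The same division by Etv4 in libraries that the rule did not use tests the markers. At E14, 466 Etv4-high cells were compared with cells without Etv4, and 586 of 9384 genes passed (6.24%), 224 higher (2.39%) and 362 lower (3.86%). F2r was at 315, 271 and 242 CPM in Etv4-high cells and 232, 92.8 and 142 CPM in Etv4-zero cells (0.79, SE 0.11, edgeR adjusted p = 5.82e-06). Crtac1 (1.61, SE 0.17, adjusted p = 3.51e-08) and Maf (1.27, SE 0.14, adjusted p = 4.95e-08) were higher as well. Dusp6 (1.21), Hs3st4 (1.58), Wscd1 (1.53), Opcml (0.93) and Gata3 (0.56) had the direction that they had in the apex.

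Neuroblast markers moved with this E14 comparison: all 5 tested were lower in Etv4-high cells, with Neurod1 at 88.1, 207 and 120 CPM against 343, 976 and 431 CPM. In the 134 Etv4-high and 203 Etv4-zero cells without a UMI of these markers, 17 of 5594 genes passed at E14. This run also held fewer cells, and the part of that was not tested. F2r (log2 difference 0.35, adjusted p = 0.562), Maf (0.62, adjusted p = 0.156), Dusp6 (0.73, adjusted p = 0.642) and Crtac1 (1.07, adjusted p = 0.0527) were not among them. Gata3 (0.13, adjusted p = 0.869), Opcml (0.53, adjusted p = 0.780) and Hs3st4 (0.87, adjusted p = 0.828) were not either, and Wscd1 was not tested there. Of the 227 genes called in the apex, 208 were tested at E14 and 119 (57.2%) had the same sign, beside 49.7% of all genes tested in both. Of these, 55 were called with the same sign, 26.4% of the apical calls tested and 11.2% of the E14 calls, and 25 with the opposite sign. By direction, 75 of 117 genes higher in the apex had the same sign (64.1%), with 47 called the same way and 14 the opposite way. Of the 91 tested genes lower in the apex 44 had the same sign (48.4%), beside 50.4% of all genes with that sign, with 8 called the same way and 11 the opposite way.

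Some genes divided in opposite directions at both stages. Neurod1 (-2.04) and Pcdh17 (-1.40, SE 0.17) were lower in Etv4-high cells at E14 and higher in the apex, and Prph was higher at E14 (1.03, SE 0.16) and lower in the apex. Tested as an interaction over both sets of libraries, apex minus E14, these differences were 2.87 for Neurod1, 2.87 for Pcdh17 and -2.20 for Prph (edgeR adjusted p = 2.33e-16, 6.96e-13 and 7.3e-15). In the E14 cells without a neuroblast marker UMI, Prph had 0.26 (adjusted p = 0.915) and lost its call, and Neurod1 and Pcdh17 were not tested. Over all genes 354 of 10182 (3.48%) passed this interaction, 212 higher (2.08%) and 142 lower (1.39%) in the apex.

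In the base the threshold left 1, 14 and 6 Etv4-high cells, and 14 of 7941 genes passed (0.176%), 5 higher (0.063%) and 9 lower (0.113%), or 8 and 6 with the size factors of DESeq2. A division by any Etv4 UMI, added after these numbers were seen, gave 18, 16 and 30 cells in the 3 basal libraries, and 59 of 8550 genes passed (0.69%), 38 higher (0.444%) and 21 lower (0.246%). F2r was at 289, 232 and 164 CPM in these cells and 72.6, 64.5 and 43.2 CPM in cells without Etv4 (1.91, SE 0.18, edgeR adjusted p = 1.25e-08). Opcml (1.55), Fstl5 (2.02), Maf (0.67), Gata3 (0.63), Nefm (0.75), Nefl (0.55), Fos (0.96) and Sox11 (0.46) were higher too. Crtac1 was at 26.2, 89.2 and 35.2 CPM against 8.34, 18.9 and 12.7 CPM and did not pass (1.66, SE 0.44, adjusted p = 0.0764). Calb2 (-0.92), Prox1 (-1.64), Lypd1 (-1.76) and Runx1 (-1.50) were lower.

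These basal calls rested on few cells: without basal replicate 3 only 1 gene passed, F2r, and without replicate 1 9 passed. Of the 227 apical calls, 214 were tested here and 158 (73.8%) had the same sign, beside 54.1% of all genes tested in both, and 23 were called with the same sign (10.7% of these apical calls and 41.1% of the basal calls) and 3 with the opposite one. Lypd1 differed between portions, with an interaction of apex minus base of 1.43 for the division by any UMI (edgeR adjusted p = 1.21e-11). By any UMI it was lower in the apex too (-0.40, adjusted p = 0.0410), so the portions differed in the size of the difference. Pvalb was lower in Etv4-positive cells of the base (-0.78) and higher in those of the apex, an interaction of 1.08 (adjusted p = 4.04e-20). At 2 per 10000 the interaction of apex and base called 10 of 9603 genes (0.104%), 8 higher (0.0833%) and 2 lower (0.0208%) in the apex, or 6 and 5 with the size factors of DESeq2. By any UMI 39 of 10390 genes passed (0.375%), 16 higher (0.154%) and 23 lower (0.221%), and 12 without basal replicate 3.

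At E18 and P1, cells with any Etv4 UMI were compared with cells without in 5 libraries, and 284 of 7852 genes passed (3.62%), 117 higher (1.49%) and 167 lower (2.13%). F2r was at 77.1, 305 and 103 CPM in the Etv4-positive cells of E18 and 48.8 and 132 CPM in those of P1, against 16.8, 63.5, 26.2, 10.9 and 25.0 CPM (2.17, SE 0.19, edgeR adjusted p = 1.11e-27). Crtac1 (1.70, SE 0.21), Maf (0.44, SE 0.10), Opcml (1.84, SE 0.14), Gata3 (1.16, SE 0.10), Fstl5 (1.70, SE 0.32) and Nefm (0.75, SE 0.05) were higher. Calb2 (-1.08, SE 0.06), Cntn5 (-1.56, SE 0.11), Lypd1 (-0.45, SE 0.08) and Runx1 (-0.59, SE 0.13) were lower. Without P1 replicate 1 Maf and Lypd1 lost their calls (adjusted p = 0.0928 and 0.0716), and without E18 replicate 1 Runx1 did (0.203).

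Th, which did not pass in the apex, passed as higher over these ages (1.90, SE 0.24, edgeR adjusted p = 2.11e-12). In Etv4-positive cells it was at 68.5, 12.7 and 146 CPM at E18 and 45.8 and 18.9 CPM at P1, against 12.5 to 21.6 CPM. E18 replicate 2 (12.7 CPM) and P1 replicate 2 (18.9 CPM) lay within the range of cells without Etv4. Th was not among the genes followed over alternative runs. Prph did not pass (0.12, SE 0.09). Dusp6 was too low for this test, at 6.08 to 15.0 CPM in the Etv4-positive cells and 0 to 1.44 CPM in the others. Of the 227 apical calls, 198 were tested and 152 (76.8%) had the same sign, beside 54.9% of all genes tested in both, and 73 were called with the same sign (36.9% of these apical calls and 27.5% of the later calls) and 6 with the opposite one. At the threshold of 2 per 10000, which E18 replicates 1 and 2 alone could fill with 10 cells, 122 of 8057 genes passed (1.51%), 41 higher (0.509%) and 81 lower (1.01%).

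**Figure D4:**
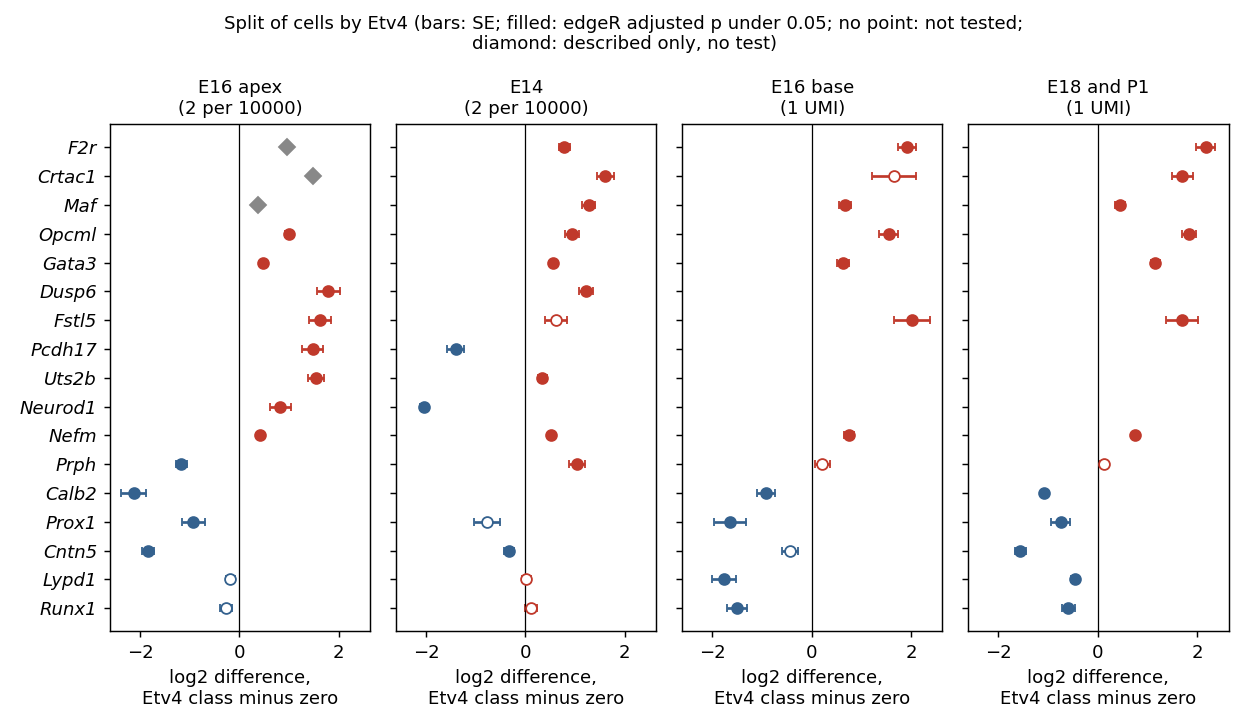
log2 difference between cells with Etv4 and cells without, for 17 genes in 4 sets of libraries; bars are SE, filled points passed an adjusted p of 0.05 in edgeR, open points did not, diamonds are described without a test, and genes without a point were not tested. F2r, Maf, Opcml and Gata3 lie on the higher side in all panels, Neurod1 and Pcdh17 turn from lower at E14 to higher in the E16 apex, and Lypd1 passed as lower in the base (-1.76) and at E18 and P1 (-0.45).

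Genes that divided the apical cells also differed between the E14 libraries, which hold whole ganglia with their apical cells, and the E16 basal libraries, both trypsin-treated and neither used by the rule. Of the 110 genes lower in members, 97 (88.2%) were higher in every basal library than in every E14 library over all cells, beside 21.2% of all 8998 genes. Of the 117 genes higher in members, 88 (75.2%) were lower in every basal library than in every E14 library, beside 19.4% of all genes. Dusp6 had a mean of 69.4 CPM at E14, 25.7 CPM in the E16 apex and 2.79 CPM in the E16 base, and Uts2b 196, 54.1 and 3.41 CPM. Calb2 was at 1.34, 61.2 and 270 CPM and Sytl2 at 8.75, 49.7 and 147 CPM. Cntn5 was at 264, 216 and 1165 CPM, close at E14 and in the apex and higher in the base. These counts describe levels over all cells of a library, in which fewer cells of a type and less RNA per cell cannot be told apart. The share of Etv4-high cells was also highest at E14 and lowest in the base, and the part of stage in the apical differences was not tested.

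Some genes did not follow that order, among them Maf, Opcml, Crtac1 and Nefm. Maf had means of 167, 357 and 282 CPM and Opcml of 74.2, 212 and 87.0 CPM, both highest in the apex. Crtac1 (55.7, 63.9 and 15.5 CPM) and Nefm (5077, 5423 and 2324 CPM) were also highest there, and lowest in the base. The log2 ratio of base to E14 was 0.75 for Maf and 0.23 for Opcml, against -1.52 for F2r, -1.78 for Crtac1 and -4.21 for Dusp6.

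**Figure D5:**
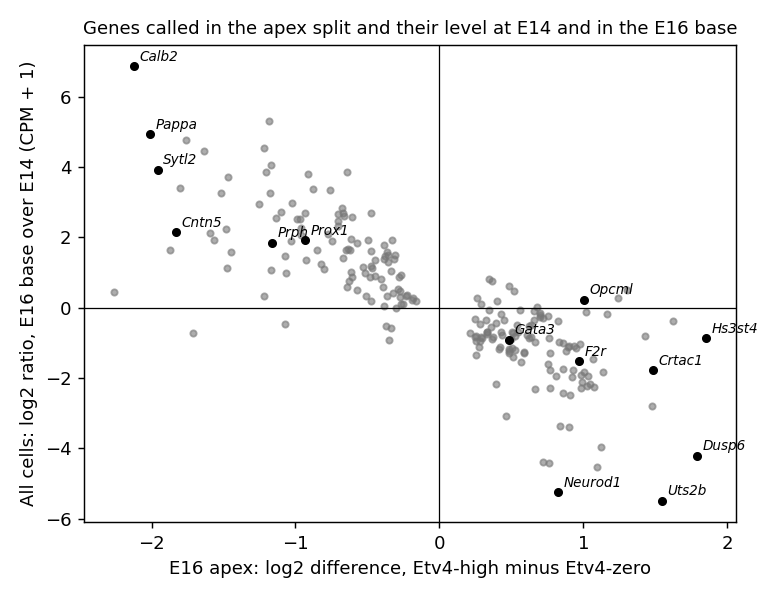
For the 227 genes called in the apical division, the log2 difference between Etv4-high and Etv4-zero cells (horizontal) and the log2 ratio of the all-cell level in the E16 base to that at E14, each CPM + 1 (vertical); each point is a gene. Most genes higher in members lie below 0 and most lower ones above 0, with Opcml (0.23) among the exceptions.

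Members of the apex and the few Etv4-high cells of the base could be compared only with wide error. Over 21 basal cells, 38 of 4550 genes passed (0.835%), 16 higher in apical cells (0.352%) and 22 lower (0.484%), and without basal replicate 3 only 2 did. This fit did not use the pairing of apex and base by replicate number. With the replicate number as block 34 genes passed, 14 higher and 20 lower. Lypd1 had a mean of 586 CPM in apical members and 88.3 CPM in basal Etv4-high cells (2.55, SE 0.42, edgeR adjusted p = 1.07e-05). Sema3a, a repulsive guidance cue gene (3.68, SE 0.92), and Ebf1 (1.32, SE 0.30) were higher in apical members, and Cntn5 (-2.85, SE 0.32), Calb2 (-3.20, SE 0.57), Sytl2 (-3.17, SE 0.56) and Necab1 (-2.96, SE 0.55) were lower.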

How the data were processed

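Single-cell RNA was measured in 14 libraries. The authors deposited a table of UMI counts per gene and cell and a table of natural log (ln) values, which are the ln of the count scaled to 10000 per cell with 1 added. Cell Ranger 3.0.1, Seurat 3.2 and mm10 are named per the submitters' processing notes; filters on cells are not given in the sources used here. The deposited count table ends after 17999 of 26655 genes, and counts of the other 8656 were computed back from the ln table (100% of values whole within 0.001). Cells were assigned to libraries by the numeric ending of their names, read as the number that each description gives its sample (the labels do not say so in words). All 5441 cells were kept, with 1327692 to 3819454 UMIs per library. 95% Wilson intervals and floors of 3 counts cover counting error only.

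Counts were summed per library and class (Etv4 left out of all tests) and fitted with edgeR 4.0.16 (TMM, filterByExpr, glmQLFit, library as block, Benjamini-Hochberg adjusted p under 0.05). Apical against basal Etv4-high cells were fitted without a block. SE is the log2 difference over the square root of F. CPM is the count per 1000000 summed UMIs of the class. DESeq2, other size factors, no filter, no block, thinning, other thresholds and leaving out libraries were alternatives. Interactions compared 2 sets of libraries in 1 fit. On simulated data with 8757 genes the apical fit recovered 85.1% of 2-fold and 97.9% of 4-fold changes. The simulation gave every gene 1 common dispersion, so recovery in the real sums may be lower. Apical and basal portions of a replicate number come from the same ganglia per the labels, and their deviations correlated (0.545, 0.393 and 0.587).

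Members, lists and tests were chosen with earlier results of these data known. Named genes were the 12 largest differences per direction among those past the threshold, with at least 20 CPM in the higher class and the same direction in every library (gene models, mitochondrial, ribosomal, haemoglobin, Xist and Y-linked genes left out), plus Etv4, F2r, Crtac1 and Maf and up to 4 genes per list with the smallest adjusted p. Opcml and members printed to complete a list were chosen after their values were seen. A symbol shared by more than 1 feature was left out. Promoters are from RefSeq. Values of some list members are not reported here.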

Additional observations from a re-analysis of the deposited data

Results flagged for a closer look

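Each value here is a difference between the Etv4 divisions of 2 sets of libraries, tested as an interaction in edgeR over all genes, for genes that the text names. At 2 Etv4 UMIs per 10000, 10 of 9603 genes differed between apex and base (8 with the apical difference above the basal one and 2 below, or 6 and 5 with the size factors of DESeq2). Among them were Lypd1 (2.31, SE 0.41), Pvalb (1.90, SE 0.22) and Runx1 (2.52, SE 0.59), over 21 basal Etv4-high cells.

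With cells of any Etv4 UMI as the positive class, the apical difference was above the basal one for Lypd1 (1.43), Runx1 (1.19) and Pvalb (1.08). It was below the basal one for Mab21l2 (-1.73), Sytl2 (-1.36), Necab1 (-1.33), F2r (-1.03), Prph (-0.91), Cntn5 (-0.87) and Tle4 (-0.45). F2r was higher in Etv4-positive cells of both portions. Necab1 was called lower in apical members and higher in basal positive cells (0.91).

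Against E14, the apical difference was higher for Pcdh17 (2.87), Neurod1 (2.87), Nedd1 (1.88), Mphosph9 (1.37), Uts2b (1.21), Fstl5 (1.00), Sox11 (0.51), Ebf1 (0.51) and Isl1 (0.46). It was lower for Prph (-2.20), Cacnb2 (-2.19), Cacna1d (-2.03), Epha3 (-1.59), Cntn5 (-1.50), Sema3e (-1.08), Syt7 (-1.02), Maf (-0.90), Casz1 (-0.75), Tle4 (-0.87), Mdga1 (-0.72) and Sox4 (-0.48). Neuroblast markers moved with the E14 division, and their part in these differences was not tested.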

How the results depend on the processing

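Of 62 genes recomputed for the apical division, 10 kept their direction and their side of the threshold in every alternative run that tested them: Cntn5, Crtac1, Dusp6, F2r, Fstl5, Hs3st4, Opcml, Pcdh17, Prph and Uts2b. Some runs did not test every gene: 45 of the 62 had a value when only genes of the count table were used. F2r and Crtac1 were named from these same libraries, so their place here is a description. Leaving out each library in turn kept 29, and the count of calls lay between 101 and 204 (227 with all 3). With DESeq2 50 genes passed (31 higher, 19 lower), without the replicate block 17, at 3000 UMIs per cell 115, at a threshold of 4 per 10000 118, without Calb2 or Prph cells 88 and without neuroblast marker cells 67. The other alternatives gave 191 to 265, with 96 higher and 169 lower when low counts were not filtered. Lypd1 turned to 0.16 at a threshold of 4 and Tle4 to 0.061 without Calb2 or Prph cells. The cause was not tested.

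The basal division at 2 per 10000 (14) gave 2 with DESeq2, 3 after thinning, 3 at 5000 UMIs or more, 30 and 111 at thresholds of 1 and 4, 7 with at least 2 UMIs, and 0 to 23 without 1 library (in edgeR 122 at an unadjusted p under 0.05 where 0 passed). By any UMI in the base (59) it was 10 with DESeq2, 14 without the replicate block and 1 to 77 without 1 library. At E14 (586) it was 161 with DESeq2, 146 without the replicate block and 17 without neuroblast marker cells, where Ebf1 (0.0043), Isl1 (0.19), Nedd1 (0.67), Fos (-0.15), Pvalb (-0.082) and Sox4 (-0.14) changed sign, and 412 to 616 without 1 library. E18 with P1 by any UMI (284) gave 459 without the filter, 108 with DESeq2, 8 without the replicate block and 153 to 273 without 1 library. E18 alone at 2 per 10000 (122) gave 18 with DESeq2 and 0 without the replicate block (271 at an unadjusted p under 0.05), and leaving out 1 of its 2 libraries was not possible.

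The interaction of apex and base (10) gave 28 without the filter, 1 with DESeq2, 1 without the replicate block and 2 to 40 without 1 library; by any UMI (39) it gave 1, 0 (348 at an unadjusted p under 0.05) and 12 to 53 for the last 3. Apex against E14 (354) gave 77 with DESeq2, 5 without the replicate block and 216 to 389 without 1 library. Apical against basal Etv4-high cells (38) gave 18 with DESeq2, 34 with the replicate block and 2 to 35 without 1 library. The difference in the share of Etv4-high cells, 16.6 percentage points, was 27.6 and 4.94 at thresholds of 1 and 4, 16.6 with the replicate block as pairs and 14.4 to 18.1 without 1 replicate number. The 21 basal Etv4-high cells limit every comparison that rests on them.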
